A study of Homo sapiens with 18 samples.

Results

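The genes described are 3 receptors of the EGFR family and 7 genes that hold receptor and MAP kinase signalling back: EGFR, ERBB2, ERBB3, ERRFI1, SPRY1, SPRY2, SPRED1, DUSP4, DUSP6 and PTPRR. They are the 10 rows of these names among the 58735 genes of the read count table, and all 10 were among the 17162 genes with enough counts to be tested. They were chosen by name with results of these data known. PTPRR was selected on its level with R1881 and on its response to R1881. ERRFI1 was selected on the difference of its response between 2 groups. Those values are given as a description and without a p-value. Calls of PTPRR and ERRFI1 on those values reflect the choice and are not a test.

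EGFR, ERBB2 and ERBB3 are receptor tyrosine kinases of the cell surface that pair with each other when a ligand of the EGF or neuregulin type binds, and they pass the signal through RAS, RAF and MEK to the kinase ERK. ERK signalling raises inhibitors of its own path, among them the Sprouty and SPRED proteins, which act on RAS and RAF, and the dual-specificity phosphatases, which take phosphate off MAP kinases. ERRFI1 (MIG6) binds the kinase domain of EGFR family receptors and inhibits it. In prostate cancer cells the EGFR family is known as a growth signal that acts beside the androgen receptor.

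RNA was measured in LNCaP, an androgen-responsive human prostate cancer line. HOXB13, a prostate homeobox factor, was targeted by a short hairpin in every group. An inducible rescue added back either nothing (EV, empty vector), the wild-type protein (WT) or HOXB13 3A, in which T8, T41 and S31 are alanine. After 48 h in RPMI with 2% charcoal-stripped serum, which removes steroids, cells received ethanol (0.1%, vehicle) or the synthetic androgen R1881 (10 nM) for 24 h. This gave 6 groups of 3 libraries. The labels do not say whether the 3 libraries of a group came from separate cultures, so p-values measure only how these libraries vary, and that variation could be technical. No library without the hairpin was used here.

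Libraries held 22812641 to 30611980 counts, 2.71% to 5.70% of them from mitochondrial genes, and libraries of a group differed by more than sampling noise (chi-square per degree of freedom 8.55 to 48.7). Levels are CPM, counts scaled to library size, and levels of different genes are compared per length, as FPKM. HOXB13 was at 497 to 564 CPM in EV, 490 to 589 in WT and 668 to 870 in 3A libraries with vehicle, and at 405 to 424, 317 to 366 and 436 to 578 CPM with R1881. The libraries labelled WT therefore held no more HOXB13 counts than those labelled EV, so the WT rescue does not show in the gene's count and the knockdown cannot be checked. HOXB13 was called higher in 3A than in WT with vehicle (log2 0.50, SE 0.11, edgeR adjusted p = 0.00807). With R1881 it was also higher there (0.55, SE 0.11, edgeR adjusted p = 0.00595). Each of these calls was lost without 1 library. Against EV with vehicle 3A was called higher as well (0.51, SE 0.11, edgeR adjusted p = 0.00482). HOXB13 was called lower with R1881 in each state, in EV with the call lost in 5 alternatives. Whether the rescue transcript is counted in that row is not given in the sources used here. EV, WT and 3A below are the labels of the libraries. All 9 luminal prostate markers were tested, and their summed level was 3342 to 4542 CPM over the vehicle libraries, 12050 to 13020 CPM in EV, 8733 to 9595 in WT and 10930 to 11400 in 3A with R1881. Basal markers summed to 0 to 3.39 CPM over all libraries, with 1.16 to 3.39 in WT with R1881 and TP63 at 0 throughout. Immune markers (0 to 0.187 CPM, CD3E at 0 throughout) and neuroendocrine markers (0 to 0.289) were near 0. The 3 endothelial markers summed to 3.41 to 5.70 CPM in EV, 11.0 to 12.05 in WT and 11.1 to 12.4 in 3A with vehicle, and to 3.25 to 4.10, 5.50 to 6.60 and 3.94 to 5.31 with R1881. The 4 fibroblast markers summed to 18.1 to 25.0 CPM over the vehicle libraries and 12.5 to 19.8 over the R1881 libraries. In each of the basal, endothelial and fibroblast lists 1 gene was high enough to be tested, and in the immune and neuroendocrine lists none was. The part of these marker levels in the results was not tested. Exons of other genes overlap 0.34% to 3.7% of the exon bases of EGFR, ERBB3, ERRFI1 and PTPRR and 0% of those of SPRY1, SPRY2, SPRED1 and DUSP4.

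The sequences at the start sites of the members that stood farthest apart, PTPRR and ERRFI1, are shown first. RefSeq promoter windows (GRCh38.p14, 250 bases before to 50 after a start) were matched for 8 of the 10 members. PTPRR has 3 such windows inside its gene span, and none of them lies at the annotated 5′ end of the gene (70920843). The one shown, at chr12:70754710-70755009 on the minus strand, is 28.7% G and C. The ERRFI1 window, at chr1:8026260-8026559 on the minus strand, is 74.7% G and C. Both are printed 5′ to 3′ along the gene. Capitals mark a match, on the opposite strand, to CAATAAA, the HOXB13 core.
PTPRR: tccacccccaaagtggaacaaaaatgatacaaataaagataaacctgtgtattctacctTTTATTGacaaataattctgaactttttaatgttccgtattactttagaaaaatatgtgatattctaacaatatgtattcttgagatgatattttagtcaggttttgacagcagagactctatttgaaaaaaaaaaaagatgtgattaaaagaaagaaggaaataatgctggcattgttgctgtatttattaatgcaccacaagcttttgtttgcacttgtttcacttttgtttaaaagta
ERRFI1: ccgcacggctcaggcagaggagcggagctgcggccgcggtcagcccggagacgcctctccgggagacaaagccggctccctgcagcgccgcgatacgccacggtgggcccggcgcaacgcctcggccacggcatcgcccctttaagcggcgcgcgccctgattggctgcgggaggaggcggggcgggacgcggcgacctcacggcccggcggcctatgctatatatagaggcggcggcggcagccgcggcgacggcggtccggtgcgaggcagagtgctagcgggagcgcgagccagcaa
The letters searched on both strands were CAATAAA, the androgen receptor half-site AGAACA, its full palindrome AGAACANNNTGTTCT (which holds the half-site), the ETS core CCGGAA, the AP-1 letters TGANTCA and the TATA letters TATAAA. The window of PTPRR held CAATAAA at positions 60 to 66, letters found in 4.0% of 35116 promoter windows of this length. A second PTPRR window, chr12:70754559-70754858, held the half-site, found in 14.8% of windows. The remaining PTPRR window, chr12:70788871-70789170, held none of the 6 patterns. Of the PTPRR windows only the one shown held CAATAAA. None of the 6 patterns was found in the ERRFI1 window. A match describes these letters and is not a binding site.

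PTPRR (ENSG00000153233, chr12:70638073-70920843, minus strand of GRCh38) encodes a receptor-type tyrosine phosphatase that dephosphorylates ERK. With vehicle it was at 17.7, 16.5 and 19.0 CPM in the EV libraries, 20.0, 17.9 and 18.2 in WT and 25.2, 18.5 and 19.9 in 3A. These 3 ranges overlapped. With R1881 the EV libraries were at 3.29, 2.29 and 2.33 CPM, the WT libraries at 17.7, 15.5 and 12.2, and the 3A libraries at 9.88, 9.34 and 8.19. The groups with R1881 did not overlap, with EV lowest, 3A between and WT highest. R1881 against vehicle was -2.74 ± 0.18 on the log2 scale (SE, n = 3 against 3) in EV, a 6.70-fold lower level. It was -1.21 ± 0.16 in 3A, 2.32-fold lower, and -0.30 ± 0.15 in WT, where the 95% interval ran from -0.62 to 0.01 and the libraries with R1881 lay just below those with vehicle.

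The response of PTPRR differed between the states by 2.44 ± 0.23 for WT minus EV, by 1.53 ± 0.23 for 3A minus EV and by -0.91 ± 0.22 for 3A minus WT. The last was not called in the edgeR fit as reported. It was called by DESeq2 and in the edgeR fits with no filter and with the replicate block. With R1881 the level in WT was 5.73-fold that of EV (log2 2.52 ± 0.18), the level in 3A 3.45-fold that of EV (1.79 ± 0.18), and the level in 3A lower than in WT by 1.66-fold (-0.73 ± 0.16). These comparisons share libraries and are not independent of each other. The call of 3A against WT with R1881 was lost without WT library 1 (-0.60) or without 3A library 3 (-0.66). The call of 3A minus EV was lost without any of 7 libraries: EV vehicle 1 (1.52) or 3 (1.47), 3A vehicle 2 (1.44) or 3 (1.49), EV R1881 2 (1.43) or 3 (1.44), and 3A R1881 2 (1.51).

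**Figure D1:**
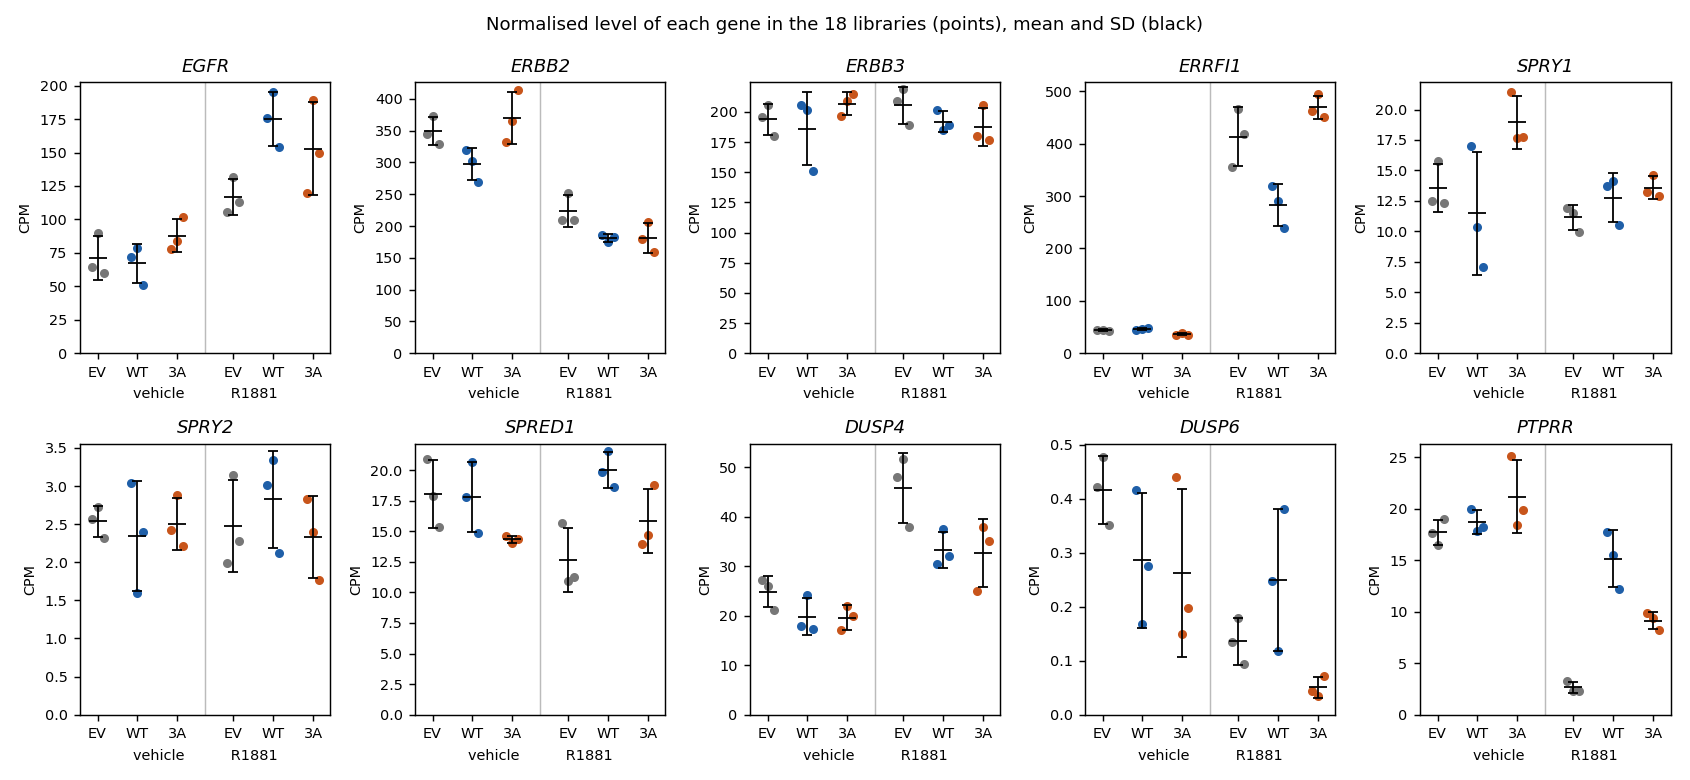
Level of each of the 10 genes in the 18 libraries. The y axis is CPM and starts at 0, points are libraries by rescue state and treatment, and black marks are the mean and SD (n = 3). PTPRR with R1881 lies at 2.29 to 3.29 CPM in EV against 12.2 to 17.7 in WT, and ERRFI1 with R1881 lies at 239 to 320 CPM in WT against 451 to 494 in 3A.

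ERRFI1 (ENSG00000116285, chr1:8004404-8026308, minus strand), the receptor inhibitor, had the highest level per length of the 10 genes in each of the 3 groups with R1881. With vehicle it was at 44.6, 45.1 and 43.0 CPM in EV, 45.2, 47.2 and 48.3 in WT and 35.0, 38.2 and 35.6 in 3A. With R1881 it was at 355, 466 and 419 CPM in EV, 320, 290 and 239 in WT, and 463, 494 and 451 in 3A. Every library with R1881 lay above every library with vehicle. With R1881 the WT libraries lay below all others, and EV and 3A overlapped. The response to R1881 was 3.22 ± 0.11 on the log2 scale in EV (9.34-fold), 2.59 ± 0.11 in WT (6.04-fold) and 3.69 ± 0.11 in 3A (12.9-fold).

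The response of ERRFI1 was larger in 3A than in WT by 1.10 ± 0.15 on the log2 scale, a 2.14-fold difference. It differed by -0.63 ± 0.15 for WT minus EV and by 0.47 ± 0.15 for 3A minus EV. Neither was called in the edgeR fit as reported. WT minus EV was called by DESeq2 and in edgeR fits with no filter, with the replicate block and without EV R1881 library 1 (-0.74). The 3A minus WT difference joins a higher level in 3A with R1881 (0.73 ± 0.10, 3A against WT) and a lower level in 3A with vehicle (-0.37 ± 0.11). The vehicle call was lost with RLE scaling (-0.36), in the fit of these 2 groups alone (-0.37), and without WT library 2 (-0.36) or 3 (-0.35) or 3A library 1 (-0.34), 2 (-0.41) or 3 (-0.36). With R1881 WT against EV was -0.55 ± 0.10, with every WT library below every EV library.

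With R1881 EGFR rose and ERBB2 fell in all 3 rescue states, and ERBB3 was not called. EGFR (ENSG00000146648, chr7:55019021-55211628, plus strand) was at 64.2, 89.9 and 59.8 CPM in EV, 72.0, 79.0 and 50.9 in WT and 78.1, 84.2 and 102 in 3A with vehicle. With R1881 it was at 106, 132 and 113 CPM in EV, 175, 195 and 154 in WT and 120, 189 and 150 in 3A. In each state all R1881 libraries lay above all vehicle libraries. EGFR rose by 0.71 ± 0.18 in EV (edgeR quasi-likelihood test, adjusted p = 0.00464), 1.38 ± 0.18 in WT (adjusted p = 5.47e-06) and 0.80 ± 0.18 in 3A (adjusted p = 0.00162). The response differed by 0.67 ± 0.25 for WT minus EV, 0.09 ± 0.25 for 3A minus EV and -0.58 ± 0.25 for 3A minus WT. None was called in the edgeR fit as reported. The first and the last were called with no filter on low counts.

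With R1881 EGFR in WT was 0.58 ± 0.18 above EV on the log2 scale, with no overlap, and in 3A it was 0.39 ± 0.18 above EV, with overlap. The 3A difference was not called as reported and was called with no filter (0.365). The WT call was lost without EV library 1 (0.50), 2 (0.67) or 3 (0.55) or without WT library 1 (0.58) or 2 (0.49). With vehicle EGFR differed by -0.08 ± 0.18 for WT against EV and by 0.30 ± 0.18 for 3A against EV, neither of them called. For 3A against WT the difference was 0.39 ± 0.18, called only with no filter (0.392).

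ERBB2 (ENSG00000141736, chr17:39687914-39730426, plus strand), the receptor that binds no ligand of its own and serves as the partner of the others, fell with R1881. It was at 344, 373 and 329 CPM in EV, 320, 302 and 270 in WT and 332, 365 and 413 in 3A with vehicle. With R1881 it was at 209, 252 and 210 CPM in EV, 186, 175 and 183 in WT and 179, 206 and 160 in 3A. No R1881 library reached a vehicle library of any state. The change was -0.64 ± 0.11 in EV (edgeR, adjusted p = 1.02e-04), -0.72 ± 0.11 in WT (adjusted p = 3.59e-05) and -1.03 ± 0.11 in 3A (adjusted p = 2.09e-07). The response differed by -0.38 ± 0.15 for 3A minus EV and by -0.31 ± 0.15 for 3A minus WT, neither of them called. With R1881 WT (-0.30 ± 0.11) and 3A (-0.30 ± 0.11) both lay below EV without overlap. Neither was called in the edgeR fit as reported. WT against EV was called by DESeq2, with the replicate block and in the fit of these groups alone. 3A against EV was called with the replicate block and without 3A library 2 (-0.40). Exons of ERBB2 share 7.41% of their bases with MIEN1 and PGAP3 on the opposite strand, and the strand setting of the counts is not given in the sources used here.

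ERBB3 (ENSG00000065361, chr12:56076799-56103505, plus strand), the neuregulin receptor with little kinase activity of its own, was not called in any of the 12 comparisons. With vehicle it was at 196, 206 and 180 CPM in EV, 206, 201 and 151 in WT and 196, 209 and 215 in 3A. With R1881 it was at 209, 219 and 189 CPM in EV, 202, 185 and 189 in WT and 180, 205 and 176 in 3A. The groups overlapped in each state. The response was 0.09 with a 95% interval of -0.13 to 0.30 in EV, 0.04 with an interval of -0.18 to 0.26 in WT, and -0.14 with an interval of -0.36 to 0.08 in 3A.

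Per length, ERBB2 made up 55.5% ± 0.84 (SD, n = 3) of the summed FPKM of EGFR, ERBB2, ERBB3 and ERBB4 in EV with vehicle, 52.8% ± 2.62 in WT and 54.4% ± 1.11 in 3A. With R1881 its share was 40.3% ± 1.06, 33.3% ± 1.38 and 34.8% ± 2.05. EGFR made up 9.27% ± 1.37, 9.74% ± 1.12 and 10.7% ± 0.53 with vehicle and 17.3% ± 0.93, 26.5% ± 2.68 and 24.0% ± 3.12 with R1881, in the order EV, WT and 3A. ERBB3 was at 34.9% to 37.5% in the vehicle groups and at 40.3% to 42.4% in the R1881 groups. With R1881 the EGFR share in EV, 16.3% to 17.9%, lay below every WT library (24.2% to 29.4%) and every 3A library (20.4% to 26.2%), and WT and 3A overlapped. An exact permutation test of 3 libraries against 3 cannot go below p = 0.10, so no test is given. ERBB4, the fourth receptor, had 1 to 9 counts in the vehicle libraries and 0 or 1 in the R1881 libraries, too few to be tested.

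**Figure D2:**
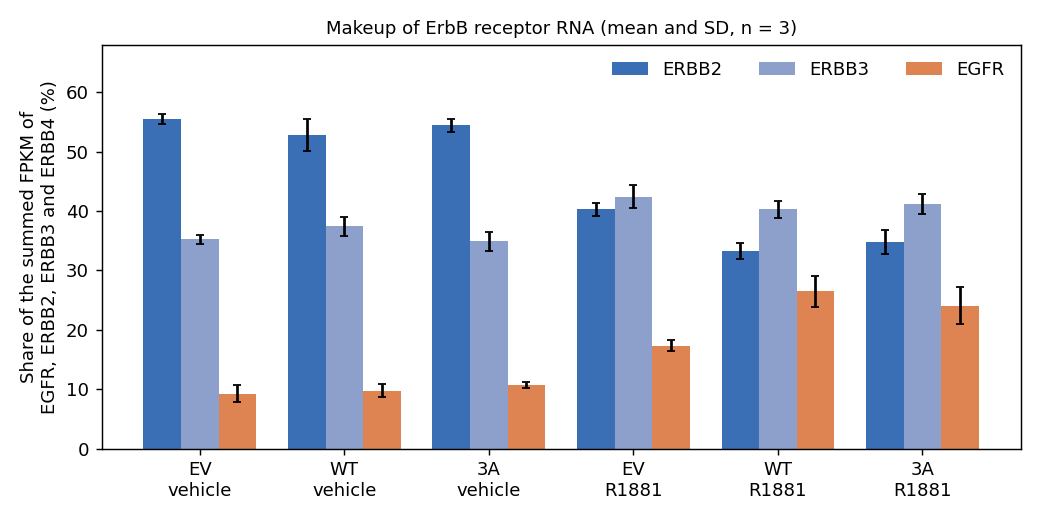
Makeup of the receptor RNA. Bars give the share of ERBB2, ERBB3 and EGFR in the summed FPKM of the 4 receptors in percent (y axis from 0), as the mean with SD of 3 libraries for each rescue state and treatment. ERBB2 is the largest share in the 3 vehicle groups, and ERBB3 has the highest mean in the 3 R1881 groups.

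The order of the 10 genes per length changed at the top with R1881. In the 3 vehicle groups it began with ERBB2 (33.5, 28.5 and 35.5 FPKM in EV, WT and 3A), ERBB3 (21.2, 20.4 and 22.7), ERRFI1 (10.5, 11.1 and 8.59) and EGFR (5.64, 5.32 and 6.97), with no overlap between neighbours. With R1881 ERRFI1 came first (98.0, 67.0 and 112 FPKM), then ERBB3, ERBB2 and EGFR. ERBB3 and ERBB2 overlapped there in EV and 3A and did not in WT. PTPRR held rank 5 in EV with vehicle (3.41 FPKM), where it overlapped SPRY1 (3.38), and rank 9 in EV with R1881 (0.51 FPKM), below SPRY2 (0.81). In WT with R1881 PTPRR (2.92 FPKM) overlapped both of its neighbours, SPRY1 and SPRED1. DUSP6 was last in all 6 groups, at 0.0108 to 0.0890 FPKM.

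DUSP4 (ENSG00000120875, chr8:29333064-29350668, minus strand), a nuclear phosphatase of ERK and other MAP kinases, rose with R1881 in all 3 states. With vehicle it was at 27.1, 26.0 and 21.2 CPM in EV, 17.9, 24.1 and 17.4 in WT and 17.0, 22.0 and 19.8 in 3A. With R1881 it was at 47.9, 51.6 and 37.9 CPM in EV, 30.4, 37.4 and 32.0 in WT and 24.9, 37.8 and 35.2 in 3A. All R1881 libraries of a state lay above its vehicle libraries. The change was 0.89 ± 0.16 in EV (edgeR, adjusted p = 2.86e-04), 0.75 ± 0.16 in WT (adjusted p = 0.00202) and 0.74 ± 0.16 in 3A (adjusted p = 0.00171). With R1881 both rescues lay below EV without overlap, by -0.46 ± 0.16 for WT and -0.49 ± 0.16 for 3A. Neither was called in the edgeR fit as reported. Both were called by DESeq2, and in edgeR fits with no filter on low counts or with the replicate number as a block.

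DUSP6 (ENSG00000139318, chr12:89347232-89353271, minus strand), a phosphatase of ERK in the cytoplasm and a common readout of ERK activity, was close to undetected. It had 10, 14 and 10 counts in the EV, 10, 4 and 7 in the WT and 14, 4 and 5 in the 3A libraries with vehicle. With R1881 it had 3, 4 and 2 counts in EV, 6, 3 and 9 in WT and 1, 1 and 2 in 3A. The counts with R1881 lay below those with vehicle in EV and 3A and overlapped in WT. The call of a fall in 3A (-2.30 ± 0.73, edgeR adjusted p = 0.0243) was lost with DESeq2 (-2.40), with no filter on low counts (-2.29), without 3A vehicle library 1 (-1.68) and without 3A R1881 library 1 (-2.22) or 2 (-2.08). Of its exon bases 40.5% lie opposite the gene AC024909.2, which had 0 counts in all libraries, and the part of this overlap in the low counts was not tested.

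SPRED1 (ENSG00000166068, chr15:38252326-38357249, plus strand), a membrane protein that brings neurofibromin to RAS, was at 20.9, 17.9 and 15.4 CPM in EV, 17.8, 20.7 and 14.9 in WT and 14.7, 14.1 and 14.3 in 3A with vehicle. With R1881 it was at 15.7, 11.0 and 11.3 CPM in EV, 19.9, 21.6 and 18.7 in WT and 13.9, 14.7 and 18.8 in 3A. With R1881 every WT library lay above every EV library, and 3A overlapped both. SPRED1 fell with R1881 in EV by 0.51 on the log2 scale (SE 0.16, edgeR adjusted p = 0.0199), although the ranges overlapped. Leaving out vehicle library 1 (-0.38) or 2 (-0.51), or R1881 library 2 (-0.41) or 3 (-0.43), ended this call. The response was 0.17 ± 0.16 in WT and 0.14 ± 0.16 in 3A, neither of them called. With R1881 WT was 0.67 ± 0.16 above EV, a call that was lost without EV library 2 (0.56) or 3 (0.58) or WT library 2 (0.60).

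SPRY1 (ENSG00000164056, chr4:123396795-123403760, plus strand) and SPRY2 (ENSG00000136158, chr13:80335976-80340951, minus strand), 2 Sprouty inhibitors of receptor to RAS signalling, were not called in any response to R1881. SPRY1 was at 12.5, 15.8 and 12.4 CPM in EV, 17.0, 10.4 and 7.07 in WT and 21.5, 17.6 and 17.8 in 3A with vehicle, and at 9.97 to 14.7 CPM over the 9 R1881 libraries. With vehicle every 3A library lay above every WT and EV library. SPRY1 was called higher in 3A than in WT with vehicle (0.73 ± 0.21, edgeR adjusted p = 0.0455). That call was lost in the fit of these 2 groups alone (0.73) and without WT library 2 (0.66) or 3 (0.47) or 3A library 1 (0.63), 2 (0.78) or 3 (0.77). Its response to R1881 in WT was 0.16 ± 0.21 and became 0.56, and was called, without WT vehicle library 1, the highest of that group. In 3A all R1881 libraries lay below all vehicle libraries (-0.48 ± 0.21, edgeR adjusted p = 0.101), and this was called lower with no filter, with the replicate block and in the fit of these groups alone. SPRY2 was at 1.59 to 3.34 CPM over the 18 libraries (38 to 85 counts), and the 95% interval of its response was -0.60 to 0.52 in EV, -0.28 to 0.83 in WT and -0.66 to 0.45 in 3A.

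**Figure D3:**
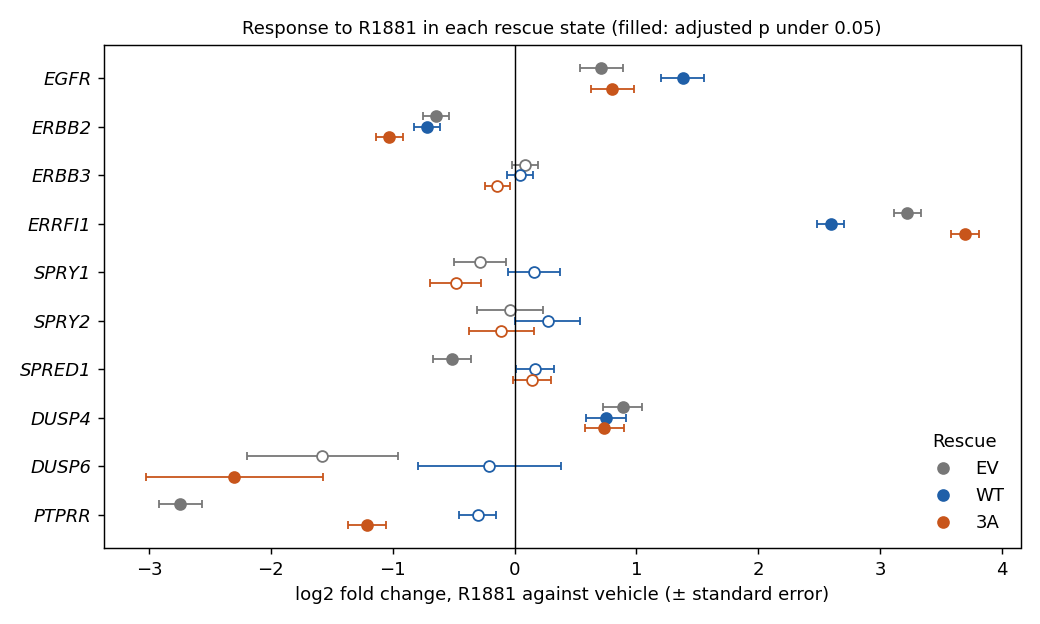
Response of the 10 genes to R1881. The x axis is the log2 fold change of R1881 against vehicle with its standard error, in EV (grey), WT (blue) and 3A (orange), and filled points have an adjusted p under 0.05 over all genes tested. PTPRR lies at -2.74 in EV, -1.21 in 3A and -0.30 in WT, and ERRFI1 at 2.59 in WT, 3.22 in EV and 3.69 in 3A.

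Counted together, 3 of the 10 genes were called higher and 3 lower with R1881 in EV, against 13.2% and 12% of all genes tested. EGFR, ERRFI1 and DUSP4 were higher, and ERBB2, SPRED1 and PTPRR lower. In WT, the same 3 were higher and ERBB2 lower, against 11.0% and 9.14% of all genes. In 3A, the same 3 were higher and ERBB2, DUSP6 and PTPRR lower, against 12.4% and 12.1%. The median log2 change of the 10 genes was -0.16 in EV, 0.16 in WT and -0.12 in 3A, beside -0.02, -0.03 and -0.01 for all genes tested. PTPRR and ERRFI1 are in these counts, and libraries that led to their choice enter each of them.

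With vehicle none of the 10 genes was called between WT and EV, where 0.647% of all genes were higher and 0.122% lower. At an unadjusted p under 0.05 there was 1, and DESeq2 called 0. None was called between 3A and EV with vehicle, where 3.97% of all genes were higher and 3.27% lower, with 3 genes at an unadjusted p under 0.05 and 0 called by DESeq2. Between 3A and WT with vehicle SPRY1 was higher and ERRFI1 lower, against 2.64% and 2.99% of all genes.

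With R1881 PTPRR, SPRED1 and EGFR were called higher and ERRFI1 lower in WT against EV, where 4.66% of all genes were higher and 4.04% lower. In 3A against EV PTPRR was called higher and none lower, against 4.39% and 4.06%. With the replicate number as a block ERBB2 and DUSP4 were called lower as well in both WT and 3A against EV. Over all genes tested 1348 and 1157 were called lower there, in place of 694 and 697. In 3A against WT ERRFI1 was called higher and PTPRR lower, against 1.41% and 1.77%. For the differences of response, PTPRR was called in WT minus EV, where 0.0757% of all genes were higher and 0.122% lower, and in 3A minus EV, where the shares were 0.00583% and 0.00583%. ERRFI1 was called in 3A minus WT, with shares of 0.0408% and 0.0175%. The choice of genes used these contrasts, and nothing is read from these counts.

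**Figure D4:**
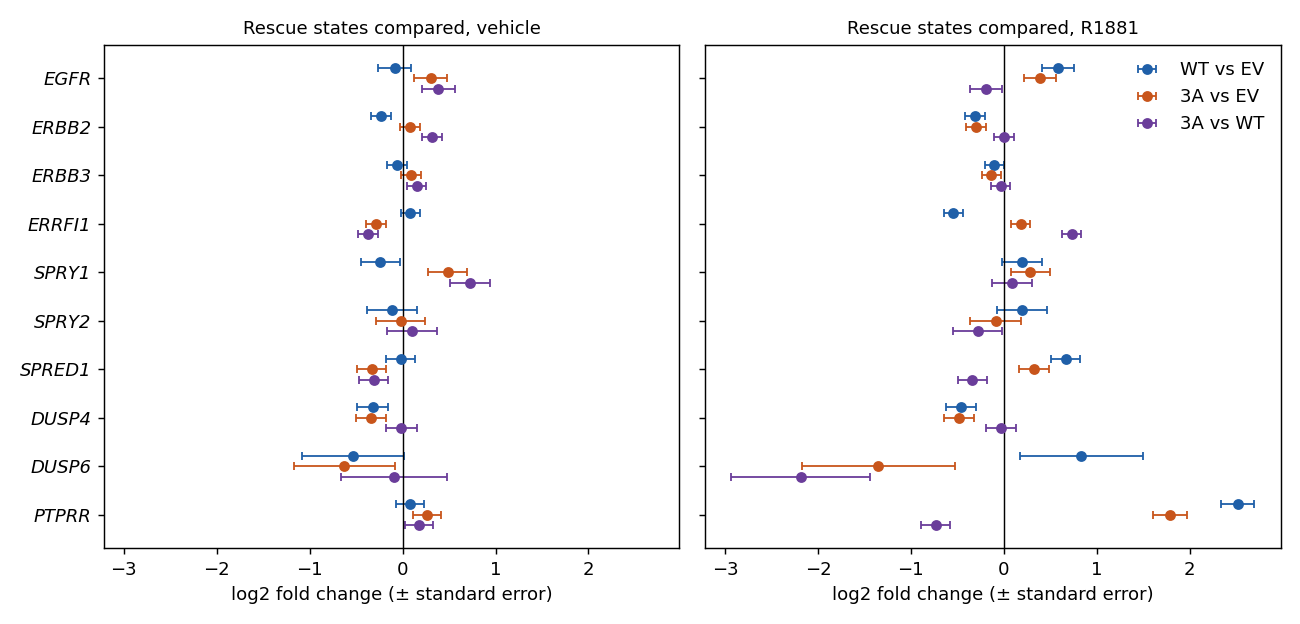
Rescue states compared with vehicle (left) and with R1881 (right). The x axis is the log2 fold change with its standard error for WT against EV (blue), 3A against EV (orange) and 3A against WT (purple), which share libraries. PTPRR stays within 0.26 of 0 with vehicle and lies at 2.52, 1.79 and -0.73 with R1881.

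The other genes of the path were taken from lists written from general knowledge: 11 ligands, ERBB4, 17 genes of the cascade from adaptor to ERK, 20 other feedback inhibitors and 18 genes that ERK is known to induce. Of these 67 genes 55 were tested. Of the 7 ligands tested, 5 fell with R1881 in each state, where 12% (EV), 9.14% (WT) and 12.1% (3A) of all genes tested were called lower, with a median change of -0.88 in EV, -0.90 in WT and -1.21 in 3A. HBEGF, a heparin-binding ligand of EGFR, fell from 11.6 ± 1.79 to 6.28 ± 0.82 CPM in EV (SD, n = 3; edgeR adjusted p = 1.50e-04), from 18.6 ± 2.88 to 6.06 ± 0.10 in WT (adjusted p = 5.55e-08) and from 13.7 ± 1.17 to 4.55 ± 0.39 in 3A (adjusted p = 6.62e-08). EGF, the founding ligand, fell by 0.64, 0.90 and 0.64 on the log2 scale (edgeR adjusted p = 0.00203, 8.74e-05 and 0.00222). AREG, a lower-affinity ligand of EGFR, had 16, 30 and 14 counts in EV, 18, 16 and 30 in WT and 8, 10 and 2 in 3A with vehicle. With R1881 it had 0, 2 and 2, then 5, 4 and 3, then 0, 0 and 1 counts, and it was called lower in each state (edgeR adjusted p = 0.0011, 0.00756 and 0.00723). NRG3, a ligand of ERBB4, fell from 1.24 to 0.20 CPM in EV, from 1.98 to 0.26 in WT and from 0.83 to 0.12 in 3A (edgeR adjusted p = 8.65e-04, 1.82e-04 and 0.00108). The other ligand called lower was TGFA, from 4.0 to 1.80 CPM in EV and from 3.60 to 1.57 in 3A (adjusted p = 0.00142 and 8.59e-04), and its call in WT was lost in 3 alternatives. NRG4, outside the naming rule and chosen after its values were seen, was the ligand called higher in 3A (1.28 ± 0.28, edgeR adjusted p = 0.00148) and in WT, where the call was lost in 7 alternatives.

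In the cascade, 4 of 17 genes were called higher and 3 lower in EV, 3 and 1 in WT, and 5 and 1 in 3A. Over all genes tested 13.2% and 12% were called higher and lower in EV, 11.0% and 9.14% in WT, and 12.4% and 12.1% in 3A. MAP2K1 (MEK1), the kinase above ERK, rose in each state, by 0.40 ± 0.08, 0.48 ± 0.08 and 0.39 ± 0.08 (edgeR adjusted p = 7.68e-04, 1.23e-04 and 8.25e-04). ARAF rose by 0.42 ± 0.09 in EV (adjusted p = 9.87e-04). BRAF and the adaptor GRB2 were called in at least 1 state, and each of those calls was lost in at least 1 alternative. GAB1, a docking protein that links receptors to RAS and PI3 kinase, fell in EV from 12.8 ± 1.11 to 6.50 ± 1.03 CPM (edgeR adjusted p = 1.54e-04). In WT it was at 15.3 ± 2.83 and 12.6 ± 2.77 CPM (-0.28, not called). In 3A it was at 14.4 ± 1.17 and 9.99 ± 0.30 CPM, called lower (-0.52, edgeR adjusted p = 0.0217). That call was lost without 3A vehicle library 1 (-0.46) or 3A R1881 library 1 (-0.53) or 3 (-0.49). With R1881 GAB1 was at 7.04, 7.14 and 5.31 CPM in EV and at 12.8, 15.3 and 9.73 in WT, with no overlap, and it was called higher in WT (0.96 ± 0.17, adjusted p = 0.00145). The difference of its response, WT minus EV, was 0.70 and was not called (edgeR adjusted p = 0.31).

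Of the 17 other feedback inhibitors tested, 3 were called higher and 4 lower in EV, 6 and 2 in WT, and 2 and 4 in 3A, beside 13.2% and 12%, 11.0% and 9.14%, and 12.4% and 12.1% of all genes tested. LRIG1, a membrane protein that promotes the loss of EGFR family receptors, rose by 1.81, 1.62 and 1.70 (edgeR adjusted p = 6.51e-11, 5.03e-10 and 1.53e-10), to 247 ± 11.8, 197 ± 7.91 and 214 ± 16.0 CPM. SPRED2 rose by 0.48, 0.45 and 0.44 (adjusted p = 0.00213, 0.00468 and 0.00391). CBL, a ubiquitin ligase of activated receptors, rose in EV (0.46, adjusted p = 0.00984) and WT (0.63, adjusted p = 8.87e-04) and was at 0.18 in 3A, not called. DUSP16, a phosphatase of JNK and p38, fell by 0.45, 0.58 and 0.47 (edgeR adjusted p = 0.00419, 5.84e-04 and 0.00276). IL17RD (SEF), an inhibitor of receptor signalling, fell by 0.78 in EV and 1.30 in 3A (adjusted p = 0.00208 and 7.15e-06) and was at -0.37 in WT, not called.

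Of the 14 ERK-induced genes tested, 1 was called higher in each state and 4, 2 and 4 were lower in EV, WT and 3A, beside 13.2%, 11.0% and 12.4% of all genes tested for higher and 12%, 9.14% and 12.1% for lower. The gene called higher was ETV1, an ETS factor, by 0.94, 0.67 and 0.80 (edgeR adjusted p = 2.34e-07, 2.64e-05 and 2.12e-06). TRIB1, a pseudokinase, fell by 1.90, 1.21 and 1.47 (adjusted p = 3.42e-09, 2.38e-06 and 1.36e-07), and EPHA2, a receptor kinase, by 0.93, 0.89 and 0.93 (adjusted p = 1.69e-04, 3.50e-04 and 1.55e-04). KLF10 fell by 0.79 in EV and 0.59 in 3A (edgeR adjusted p = 1.57e-04 and 0.00236) and was at -0.30 in WT, not called. FOS and EGR1, immediate early genes of the list, were named after their values were seen. They were at or below 1.44 CPM in every group mean and were not called. MYC, also on the list, was called lower in EV and 3A, and each call was lost without some single libraries. The median change of the list was -0.23 in EV, -0.23 in WT and -0.36 in 3A.

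**Figure D5:**
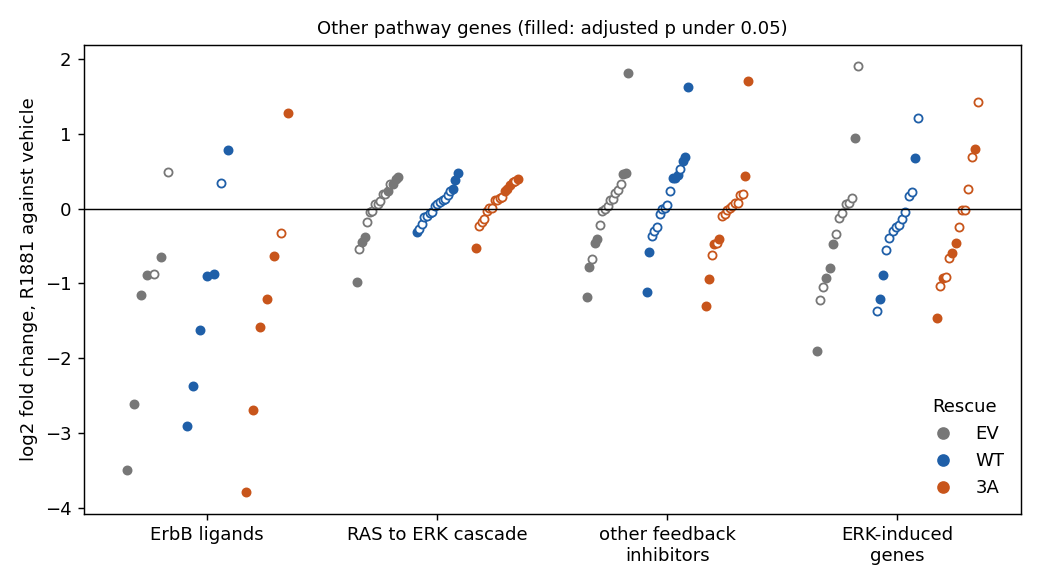
Other genes of the path. Each point is a tested gene, the y axis is the log2 fold change of R1881 against vehicle in EV (grey), WT (blue) or 3A (orange), genes are sorted within a list, and filled points have an adjusted p under 0.05. Of the 7 ligands 5 lie below 0 and are filled in each state, and LRIG1 is the highest filled point of the feedback list at 1.81, 1.62 and 1.70.

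Between rescue states 1 to 6 of the 55 genes were called. With vehicle there was 1 in WT against EV (HBEGF, higher, lost in 4 alternatives), 3 in 3A against EV (DUSP7 and ETV1 higher, MAP2K2 lower) and 1 in 3A against WT (DUSP7, higher). With R1881 there were 6 in WT against EV (GAB1, TRIB1 and SPRY3 higher, DUSP1, ARAF and IER2 lower), 2 in 3A against EV (GAB1 higher, IER2 lower) and 1 in 3A against WT (IL17RD, lower). Of all genes tested, the shares called higher and lower with vehicle were 0.647% and 0.122% for WT against EV, 3.97% and 3.27% for 3A against EV, and 2.64% and 2.99% for 3A against WT. With R1881 they were 4.66% and 4.04%, 4.39% and 4.06%, and 1.41% and 1.77%. With the replicate number as a block, 3A against EV with R1881 gave 6 calls in place of 2. Over all genes tested that block gave 1252 higher and 1157 lower in place of 754 and 697. Apart from GAB1 in WT against EV, each of the calls named here was lost in at least 1 alternative. None of the 55 was called in a difference of response in the edgeR fit as reported or by DESeq2. Calls for 3A minus WT appeared in the edgeR fit with no filter. At an unadjusted p under 0.05 there were 6 for WT minus EV, 4 for 3A minus EV and 4 for 3A minus WT.

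Likeness of pattern was measured as the root mean square difference of the 6 group means of log2 CPM, each gene centred on its own mean, over 11807 protein-coding genes with a mean of at least 1 CPM. Nearest to PTPRR were BMX, a non-receptor tyrosine kinase (0.30), OR51E1, an olfactory receptor of the prostate (0.36), DIO1, a thyroid hormone deiodinase (0.41), and AIDA (0.41), where the median over all genes was 1.04. BMX was at -1.95 in EV, -0.63 in 3A and 0.23 in WT with R1881 on this centred scale. Among the 4 genes nearest to ERRFI1 were ACSL3, which activates long-chain fatty acids (0.12), HHIPL2 (0.14) and RUNX1, a transcription factor (0.19), where the median was 1.60. With R1881 ACSL3 was at 1.65 in EV, 1.10 in WT and 1.88 in 3A. These genes were picked for the likeness, over 6 group means from the same libraries.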

How the data were processed

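Counts of reads per gene, whole numbers for 58735 genes, and FPKM values of the same genes were deposited by the authors. Per the submitters' processing notes, HISAT2 2.0.5, hg38 and featureCounts 1.5.0-p3 were used. The strand setting and the handling of multi-mapping reads are not stated there. Of these genes, 58724 have the coordinates of GENCODE release 29 (GRCh38). The deposited FPKM values equalled the count divided by gene length and an effective library size within 0.1%.

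The deposited counts were tested with edgeR 4.0.16 (R 4.3.3). Genes passed filterByExpr (minimum count 10, minimum total 15), and TMM scaled the libraries. All 18 libraries entered a single quasi-likelihood fit with a mean for each group, which left 12 residual degrees of freedom. In each of 12 comparisons the Benjamini-Hochberg adjustment ran over the 17162 genes tested, and calls are at an adjusted p under 0.05. SE is the log2 fold change divided by the root of F. The procedure was tested on simulated data.

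The members and lists were chosen with earlier results of these data known. HOXB13 and the members are named whether called or not. Of each list and comparison up to 3 called genes with the smallest adjusted p are named, with values where the call held in all alternatives. For PTPRR and ERRFI1 the rule takes the 4 genes of nearest pattern. Some genes that met these rules are not reported here and stay in every count. Over 27 same-numbered pairs in 9 comparisons, deviations from the group means correlated at -0.141 to 0.283. All 3 pairs were over 0.1 in 2 comparisons, 3A against EV with R1881 (0.105 to 0.154) and R1881 against vehicle in EV (0.163 to 0.198). That is a sign of pairing by number from the data only. The fit as reported holds no pairing in any comparison, and the replicate block is an alternative. What the numbers mean is not labelled. Alternatives were RLE scaling, DESeq2 1.42.0, no filter, a filter of 1 CPM in 3 libraries, a fit of only the groups compared, the replicate number as a block, and each library left out. All of these but DESeq2 were edgeR fits.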

Additional observations from a re-analysis of the deposited data

Results flagged for a closer look

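The values below are interaction terms of the fit over all genes for the response of 2 genes to R1881. They are a description and not a test. PTPRR responded less in WT than in EV libraries, with a difference of 2.44 on the log2 scale (WT minus EV, SE 0.23), and less in 3A than in EV, with a difference of 1.53 (SE 0.23). ERRFI1 responded more in 3A than in WT, with a difference of 1.10 (SE 0.15). The choice of genes used these values.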

How the results depend on the processing

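Of the 28 calls among the 10 genes, 20 held in all alternatives, and no call changed its sign. Calls of PTPRR and ERRFI1 are in both counts, some of them on values used for the choice. These counts are therefore no measure of how firm the results of the 10 genes are. Of 92 values not called, 14 were called in some alternative. Of 82 calls among the other path genes, 47 held in all. RLE scaling moved the median of all genes by at most 0.008 on the log2 scale. Counts below are genes called, with the value as reported in brackets. Over all genes, DESeq2 gave 1058 higher and 1116 lower for WT against EV with R1881 (799 and 694). It gave 995 and 938 for 3A against EV with R1881 (754 and 697), where no filter gave 773 and 979. For WT minus EV all genes gave 61 and 90 with DESeq2 and 65 and 161 with no filter (13 and 21). For 3A minus WT they gave 46 and 35, and 72 and 106 (7 and 3). Among the 10 genes, 3A against EV with vehicle (0) became 1 with no filter and 1 in the fit of only the groups compared. WT against EV with R1881 (4) became 6 with DESeq2. 3A against EV with R1881 (1) became 2 with DESeq2 and 3 with no filter. 3A against WT with vehicle (2) became 1 with RLE and 0 with only its groups. The differences of response WT minus EV (1) and 3A minus WT (1) each became 2 with DESeq2 and 3 with no filter. Without 1 library the counts were 2 to 4 for WT against EV with R1881 (4), 1 to 3 for 3A against EV with R1881, 0 to 2 for 3A against WT with vehicle, 1 to 2 for 3A against WT with R1881 (2), 1 to 2 for WT minus EV and 0 to 1 for 3A minus EV (1). Among the other path genes, with only the groups compared, WT against EV gave 0 with vehicle (1) and 10 with R1881 (6), 3A against EV with R1881 (2) gave 4, and 3A against WT gave 0 with vehicle (1) and 0 with R1881 (1). Over all genes those fits gave 59 higher and 5 lower for WT against EV with vehicle and 1200 and 1166 with R1881. They gave 884 and 861 for 3A against EV with R1881. For 3A against WT they gave 262 and 265 with vehicle and 263 and 212 with R1881. For the other path genes DESeq2 gave 5 for 3A against EV with R1881 and 3 for 3A against WT with vehicle. No filter gave 1 and 3 there and 2 for 3A minus WT (0). Without 1 library these counts were 0 to 1 and 1 to 4 for WT against EV with vehicle and R1881, 1 to 2 (3) and 0 to 1 for 3A against EV, and 0 to 2 and 0 to 1 for 3A against WT. Fewer libraries enter those fits and the fits of only the groups compared. The cause of the changed counts was not tested in any setting.

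Of the 27 same-numbered pairs 16 correlated over 0.1 and 21 were best with their own number, but in 7 of 9 comparisons not all pairs were over 0.1. With the number as a replicate block, the 10 genes gave 3 calls for 3A against EV with R1881, 2 for WT minus EV and 2 for 3A minus WT. Over all genes the block gave 53 higher and 80 lower for WT minus EV (13 and 21). It gave 51 and 45 for 3A minus WT (7 and 3). The block also added calls of ERBB2 and DUSP4 in WT against EV with R1881, and of ERBB2 in 3A against WT with vehicle. In the same block fit the other path genes gave 12 for WT against EV with R1881, 6 for 3A against EV with R1881 and 4 for 3A against WT with vehicle. Over all genes these were 1361 higher and 1348 lower (799 and 694), 1252 and 1157 (754 and 697), and 828 and 904 (453 and 514). In R1881 against vehicle in EV, where all pairs were over 0.1, the block changed no call of the 10 genes and gave 29 calls among the other path genes (24). There all genes gave 2770 higher and 2516 lower (2270 and 2066). DUSP6 had 1 to 14 counts per library, which limits its precision.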
